A study of Mus musculus with 8 samples.

Results

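Resting lymphocytes are held out of the cell cycle in part by transcription factors and by cofactors of mRNA deadenylation, and homing receptors guide their recirculation. The mRNAs of 9 genes of these kinds are described here in activated B cells that lack the translation factor EIF4A1. The genes are Klf2, Klf3, Foxo1, Foxo3, Foxp1, Btg1, Btg2, Tob1 and S1pr1. They were chosen by name, with earlier results of these data known, and the 9 are among 53242 genes in the deposited tables. All 9 passed the filter on low counts, which left 14218 genes for testing.

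B cells from spleens of C57BL/6 mice aged 8 to 12 weeks were cultured for 24 h with 40 ng/ml IL4 on CD40LB cells, a fibroblast line that expresses CD40 ligand and human BAFF. The feeder cells had been irradiated with 120 Gy and were labelled with a biotinylated antibody to H-2Kd and taken out on beads that bind biotin before RNA was extracted. The 4 control mice were Eif4a1+/+ CD23-cre and the 4 knockout mice (4A1 KO) were Eif4a1 fl/fl CD23-cre, so both genotypes carried the Cre transgene, which is active from the immature B cell stage in the spleen, and differed in whether Eif4a1 exons were flanked by loxP sites. Each library came from 1 mouse. Batch A held replicate 1 (males) and replicate 2 (females), and batch B held replicate 3 (males) and replicate 4 (females). Replicate 1 of both genotypes had reduced viability and was left out of differential expression by the study, so means, standard deviations (SD) and tests are from replicates 2 to 4 (n = 3 per genotype), and all 8 libraries are shown.

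KLF proteins are zinc-finger transcription factors that bind CACCC boxes, and KLF2 keeps naive lymphocytes quiescent and recirculating, in part through S1PR1, the receptor that guides lymphocytes out of tissues towards sphingosine-1-phosphate. FOXO proteins are forkhead factors that drive cell cycle inhibitors and homing genes until PI3K and AKT signalling exports them from the nucleus, and FOXP1 is a forkhead factor abundant in mature naive B cells. BTG and TOB proteins restrain proliferation and recruit the CCR4-NOT deadenylase to mRNAs, which shortens their poly(A) tails.

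The sequence upstream of the start of each member was searched for the motifs that KLF and forkhead proteins are known to bind, because both kinds of factor are among the members. The 250 bases before the start of the canonical GENCODE M39 transcript were read from GRCm39, 5′ to 3′ on the strand of the gene. Those of the 5 members that passed the test described below are printed, with each match to CACCC on either strand (GGGTG on the other strand) in capitals. They lie at chr8:73072476-73072725 (plus strand, Klf2), chr3:115508722-115508971 (minus strand, S1pr1), chr5:64960457-64960706 (plus strand, Klf3), chr1:134006859-134007108 (minus strand, Btg2) and chr11:94102008-94102257 (plus strand, Tob1).
Klf2 promoter: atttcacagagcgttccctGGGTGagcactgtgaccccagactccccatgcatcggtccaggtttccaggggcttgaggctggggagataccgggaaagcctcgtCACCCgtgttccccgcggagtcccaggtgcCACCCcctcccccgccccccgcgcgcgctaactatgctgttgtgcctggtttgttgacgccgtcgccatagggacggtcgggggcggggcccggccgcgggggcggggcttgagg
S1pr1 promoter: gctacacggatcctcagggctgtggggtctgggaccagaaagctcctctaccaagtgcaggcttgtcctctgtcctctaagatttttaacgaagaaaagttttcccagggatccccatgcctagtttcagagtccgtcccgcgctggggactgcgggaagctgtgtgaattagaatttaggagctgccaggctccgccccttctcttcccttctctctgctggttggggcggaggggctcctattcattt
Klf3 promoter: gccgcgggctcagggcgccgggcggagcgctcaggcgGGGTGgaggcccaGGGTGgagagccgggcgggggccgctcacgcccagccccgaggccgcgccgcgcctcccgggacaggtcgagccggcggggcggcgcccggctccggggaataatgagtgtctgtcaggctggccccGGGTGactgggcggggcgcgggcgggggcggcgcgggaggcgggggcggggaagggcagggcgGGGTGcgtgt
Btg2 promoter: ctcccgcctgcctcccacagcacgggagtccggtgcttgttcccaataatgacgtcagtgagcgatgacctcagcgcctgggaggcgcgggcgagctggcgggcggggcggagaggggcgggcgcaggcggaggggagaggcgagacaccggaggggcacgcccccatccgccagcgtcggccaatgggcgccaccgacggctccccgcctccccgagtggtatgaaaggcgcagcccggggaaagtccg
Tob1 promoter: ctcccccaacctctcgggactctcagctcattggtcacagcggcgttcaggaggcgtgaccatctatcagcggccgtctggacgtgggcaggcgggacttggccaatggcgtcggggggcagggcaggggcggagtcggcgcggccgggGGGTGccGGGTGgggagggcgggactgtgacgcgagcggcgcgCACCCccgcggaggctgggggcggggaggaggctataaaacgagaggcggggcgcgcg
Klf3 held 4 CACCC matches, Klf2 and Tob1 held 3 each, and the windows of S1pr1 and Btg2 held none. Of all 9 members, 4 had at least 1 match (Klf2, Klf3, Foxp1 and Tob1), against 52.7% of the 14178 windows of tested genes. The forkhead motif GTAAACA, searched on both strands, was found in 1 member, Btg1, 202 bases before its start, and in 2.5% of all windows. CACGTG (the E-box of MYC) and TTCNNNNGAA (the spacing bound by STAT6, which IL4 activates) were in 0 members, and in 7.4% and 5.3% of all windows. TATAAA was in the windows of Btg1 and Tob1, and in 9.17% of all. These matches describe letters in the window and not occupied sites.

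Total counts per library ran from 39890141 to 43210858 in control and from 31727557 to 42705798 in 4A1 KO. Eif4a1 itself, the targeted gene, had 825, 748, 939 and 881 normalised counts scaled to library size (CPM) in control replicates 1 to 4 and 596, 556, 641 and 689 CPM in 4A1 KO. No 4A1 KO library reached the lowest control. The log2 fold change was −0.44 (standard error, SE, 0.05), short of the size of 0.5 used below to call a gene. The loxP sites flank exons 2 to 4 and the counts span the whole gene, so transcripts without those exons would still be counted. Counts per exon were not examined. B cell markers summed to 5729 to 6701 TPM, the deposited measure per transcript length, in control and 5964 to 6118 in 4A1 KO. Fcer2a, the leading gene of this list, alone ran from 2771 to 3795 TPM over the libraries. Of the 11, 5 were called decreased by the rule given below, beside 13.7% of all genes. Of 12 T cell markers, 4 (Cd3g, Trbc1, Trbc2 and Themis) had 0 counts in every library and the list summed to 14.4 to 23.6 TPM in control and 10.0 to 18.2 in 4A1 KO, most of it Lck. Endothelial cells, which also express Klf2 and S1pr1, had 4 of 7 markers (Kdr, Tek, Tie1 and Emcn) at 0 counts in every library, and this list summed to 5.89 to 14.5 TPM in control and 3.23 to 7.69 in 4A1 KO, with Pecam1, a gene that B cells also express, its leading gene and 1 marker called decreased. The 10 fibroblast markers summed to 3.24 to 15.0 TPM in control and 5.04 to 9.66 in 4A1 KO, with Lum and Postn at 0 counts in every library, 1 marker called increased and 1 decreased. The 9 myeloid markers summed to 2.77 to 5.32 TPM in control and 4.02 to 6.35 in 4A1 KO, with 1 called increased, and the 7 erythroid markers reached at most 1.61 TPM. The part of other cell types in the values below was not tested.

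The members did not move as a group. A gene was called when the quasi-likelihood test of edgeR gave it a p under 0.05 after Benjamini-Hochberg adjustment over all 14218 genes and its absolute log2 fold change was above 0.5. By this rule Klf2 and S1pr1 fell in 4A1 KO B cells, and Klf3, Btg2 and Tob1 rose. The 5 called members of 9 stand beside 25.3% of all genes tested that were called, 11.6% as increased and 13.7% as decreased. With the p threshold alone, all 9 members passed, 6 higher and 3 lower in 4A1 KO, as did 53.0% of all genes. This count was 8 in DESeq2 (43.8% of all genes), without replicate 2 (39.9%) and without replicate 3 (41.7%), where Foxo1 missed the threshold. It was 6 without the replicate block (35.8%), where Foxo1, Btg1 and S1pr1 missed it. The median log2 fold change of the members was 0.32 and that of all genes 0.01. Without replicate 2, 3 members were called, beside 21.5% of genes. In a bulk library, fewer cells that express a gene and less of its RNA per cell cannot be told apart.

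**Figure D1:**
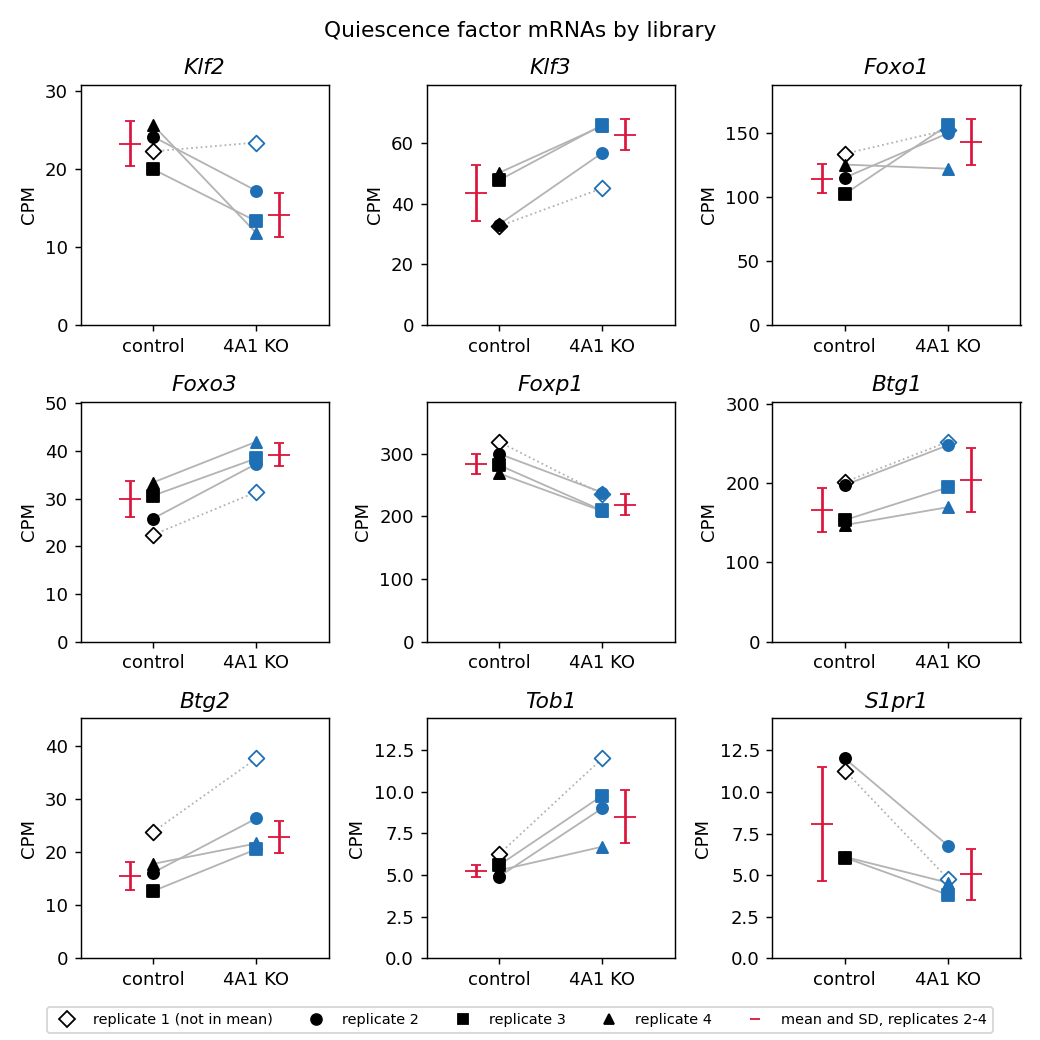
CPM (linear axes from 0) of the 9 members in each of 8 libraries, with lines joining the control and 4A1 KO library of the same replicate number and red bars giving the mean and SD of replicates 2 to 4. Klf2, Foxp1 and S1pr1 lie lower in 4A1 KO in replicates 2 to 4, whereas Klf2 in replicate 1 went from 22.3 to 23.4 CPM.

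Klf2 (ENSMUSG00000055148, chr8:73072726-73075502, plus strand, 3 exons) had 22.3, 24.1, 20.0 and 25.6 CPM in control replicates 1 to 4 and 23.4, 17.2, 13.3 and 11.8 CPM in 4A1 KO. Replicates 2 to 4 did not overlap between the genotypes, but 4A1 KO replicate 1 lay within the range of the controls. The mean of replicates 2 to 4 went from 23.3 ± 2.94 to 14.1 ± 2.81 CPM (SD, n = 3), which corresponds to −0.73 on the log2 scale (SE 0.12; edgeR adjusted p = 0.00103). The log2 differences within replicates 1 to 4 were 0.07, −0.49, −0.59 and −1.12, so the mean within batch A was −0.21 and that within batch B −0.86. The batch A mean includes replicate 1, which had reduced viability, and without it only the pair at −0.49 remains in that batch. The part of viability in this difference was not tested. The interaction of genotype with batch had an unadjusted p of 0.022 and an adjusted p of 0.999 in edgeR over the 8 libraries. With all 8 libraries fitted, the log2 fold change was −0.53. The gene Eps15l1 overlaps Klf2 on the opposite strand with 2553 to 3435 counts per library, against at least 504 for Klf2, and the counting kept the strands apart.

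Klf3 encodes a KLF repressor that recruits CtBP and competes for the same boxes as the activating members of the family. Klf3 (ENSMUSG00000029178, chr5:64959875-64990261, plus strand, 6 exons) had 32.6, 33.1, 47.7 and 50.2 CPM in control and 45.1, 56.8, 66.0 and 65.7 CPM in 4A1 KO. Within each replicate number the 4A1 KO library was higher, and the genotypes overlapped only through 4A1 KO replicate 1. The mean rose from 43.7 ± 9.23 to 62.8 ± 5.23 CPM (SD, n = 3), and the log2 fold change was 0.54 (SE 0.08; edgeR adjusted p = 4.98e-04). The call was lost without replicate 2, where the log2 fold change was 0.43. The 2 members of the KLF family chosen here thus had opposite signs in the same libraries.

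S1pr1 (ENSMUSG00000045092, chr3:115504071-115508721, minus strand, 2 exons) had 11.3, 12.0, 6.06 and 6.11 CPM in control and 4.78, 6.77, 3.82 and 4.55 CPM in 4A1 KO. Each 4A1 KO library was below the control of its own number, but 4A1 KO replicate 2 was above both batch B controls, so the genotypes overlapped. The controls of batch A averaged 11.7 CPM and those of batch B 6.08 CPM, and the 4A1 KO libraries 5.78 and 4.19 CPM. The mean fell from 8.06 ± 3.43 to 5.05 ± 1.54 CPM (SD, n = 3), and the log2 fold change was −0.64 (SE 0.12; edgeR adjusted p = 0.00202). Without the replicate block the log2 fold change was −0.68 and the adjusted p was 0.135, so this call rests on comparing the genotypes within batch and sex. The differences within replicates 1 to 4 were −1.24, −0.83, −0.67 and −0.42 on the log2 scale.

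The BTG and TOB mRNAs were all higher in 4A1 KO. Btg2, an antiproliferative gene that p53 and growth signals induce (ENSMUSG00000020423, chr1:134002908-134015033, minus strand, 2 exons), had 23.8, 16.1, 12.7 and 17.8 CPM in control and 37.6, 26.3, 20.6 and 21.6 CPM in 4A1 KO. Replicate 1 had the highest value in either genotype, and among replicates 2 to 4 the genotypes did not overlap. The mean rose from 15.5 ± 2.62 to 22.9 ± 3.07 CPM (SD, n = 3), and the log2 fold change was 0.56 (SE 0.10; edgeR adjusted p = 0.00163). The fold change came to 0.49 without replicate 2 and 0.499 without replicate 3, both short of the threshold.

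Tob1, whose product binds both the deadenylase and the poly(A)-binding protein (ENSMUSG00000037573, chr11:94102258-94106334, plus strand, 2 exons), had 6.24, 4.90, 5.58 and 5.28 CPM in control and 12.0, 9.004, 9.76 and 6.70 CPM in 4A1 KO. All 4A1 KO libraries were above all controls, by the smallest margin in replicate 4. The mean rose from 5.25 ± 0.343 to 8.49 ± 1.60 CPM (SD, n = 3), and the log2 fold change was 0.68 (SE 0.13; edgeR adjusted p = 0.00238). Tob1 lies on the same chromosome as Eif4a1, 24.5 Mb from it.

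Btg1, the abundant BTG gene of resting lymphocytes (ENSMUSG00000036478, chr10:96452861-96458671, plus strand, 2 exons), had 201, 197, 153 and 147 CPM in control and 252, 248, 194.5 and 169.5 CPM in 4A1 KO. Both genotypes were higher in batch A than in batch B, and the 4A1 KO library was higher in each of the 4 pairs. The log2 fold change of 0.29 (SE 0.05; edgeR adjusted p = 0.00108) passed the p threshold and not that of size. Without the replicate block the log2 fold change was 0.30 and the edgeR adjusted p was 0.176, so the p also rests on comparing the genotypes within batch and sex. The copies Btg1b and Btg1c had 0 counts in every library.

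None of the 3 forkhead members reached the threshold of size. Foxo1, the FOXO gene with the best known part in B cell homing and development (ENSMUSG00000044167, chr3:52175757-52260642, plus strand, 3 exons), had 133, 115, 102 and 125 CPM in control and 152, 149.5, 156 and 122 CPM in 4A1 KO. The library of 4A1 KO replicate 4 was below its control, and the genotypes overlapped. The log2 fold change was 0.32 (SE 0.10; edgeR adjusted p = 0.0267). It came to 0.18 (edgeR adjusted p = 0.142) without replicate 3 and to 0.50 without replicate 4, and the adjusted p was 0.159 without replicate 2 and 0.1755 in DESeq2.

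Foxo3 (ENSMUSG00000048756, chr10:42057837-42154007, minus strand, 4 exons) had 22.4, 25.8, 30.6 and 33.4 CPM in control and 31.4, 37.3, 38.5 and 42.0 CPM in 4A1 KO. It was higher in 4A1 KO within all 4 pairs, with overlap only through 4A1 KO replicate 1, and the log2 fold change was 0.40 (SE 0.07; edgeR adjusted p = 0.0015). Foxp1 (ENSMUSG00000030067, chr6:98902299-99499685, minus strand, 15 exons) had 319, 300.0, 282 and 269 CPM in control and 235, 238, 209 and 208 CPM in 4A1 KO. The genotypes did not overlap, and its SE was the smallest of the members, with a log2 fold change of −0.38 (SE 0.05; edgeR adjusted p = 1.77e-04). Foxp1 thus went in the opposite direction to both FOXO members.

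Over the 8 libraries, the CPM of the genotypes did not overlap for 2 of the 9 members, Foxp1 and Tob1, against 36.8% of the 14211 genes tested in these libraries. An exact permutation test on log2(TPM + 1), two-sided with 4 against 4 libraries and the 9 members compared, gave p = 0.0286 for Foxp1 and for Tob1, the smallest value this design allows. For the other members the exact permutation p was between 0.0857 and 0.143, without adjustment and without regard to batch. In edgeR with all 8 libraries 5 members were called, beside 25.6% of genes, with log2 fold changes of −0.79 for S1pr1 and 0.74 for Tob1. In limma on log2(TPM + 1) of replicates 2 to 4, 5 members were called, beside 20.0% of genes, with differences of −0.71 for Klf2, −0.52 for S1pr1, 0.50 for Klf3, 0.51 for Btg2 and 0.56 for Tob1. In TPM, 1 member was called without the filter on low TPM (8.68% of genes), without replicate 2 (18.3%) or without replicate 3 (17.9%).

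The TPM values, which are per length, allow levels to be set between genes. In control B cells Foxp1 was the most abundant member with a mean of 138 TPM over 4 libraries, followed by Btg1 with 69.5, Foxo1 with 25.6 and Klf2 with 23.3 TPM. Klf3 (15.1 TPM), Btg2 (12.0), Foxo3 (8.62), S1pr1 (5.42) and Tob1 (4.52) followed. Foxp1 and Btg1, Btg1 and Foxo1, and Klf2 and Klf3 were the neighbours whose 4 control libraries did not overlap, and the other neighbours overlapped. In 4A1 KO the order of mean TPM was Foxp1 (102), Btg1 (85.0), Foxo1 (30.8), Klf3 (21.3), Btg2 (17.8), Klf2 (16.3), Foxo3 (10.8), Tob1 (7.55) and S1pr1 (3.03). Klf3 and Btg2 thus stood above Klf2, and Tob1 above S1pr1, although the libraries of Klf3, Btg2 and Klf2 overlapped in 4A1 KO.

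**Figure D2:**
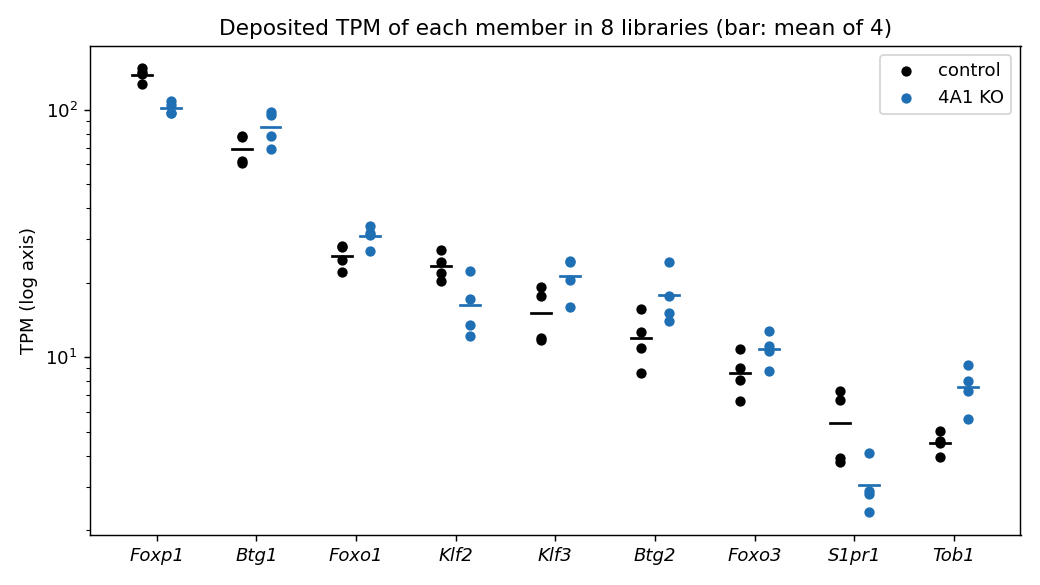
Deposited TPM (log axis) of the 9 members in the 4 control (black) and 4 4A1 KO (blue) libraries, ordered by the control mean, with bars at the mean of 4. The levels run from 138 TPM for Foxp1 to 4.52 TPM for Tob1 in control, and Tob1 and S1pr1 exchange places in 4A1 KO.

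The members also varied between libraries of the same genotype. After the mean of each genotype was subtracted, log2 CPM of Klf3 and Foxo3 had a Pearson's r of 0.95 over the 8 libraries, as did Foxp1 and Btg1, whereas Klf3 and Btg1 had an r of −0.90. Klf2 and S1pr1 had an r of 0.23. The libraries share batch, sex and viability, and these coefficients describe 8 points. Control Klf3 averaged 32.8 CPM in batch A and 48.9 CPM in batch B, and control Btg1 199 and 150 CPM. Klf3 and Btg1, both higher in 4A1 KO within every pair, were thus ordered oppositely by batch.

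By the same measure over 11829 genes with at least 1 CPM on average, the gene most like each member was Gm49336 for Klf3 (r of 0.996), Armcx6 for Btg1 (0.996), Trappc13 for Foxo3 (0.995), Irf8 for Foxp1 (0.993), Fam160b2 for Tob1 (0.992), Bloc1s1 for S1pr1 (0.988), Gm11696 for Btg2 (0.982), Cmas for Foxo1 (0.965) and 1500011B03Rik for Klf2 (0.95). For Klf3, 755 genes had an r above 0.9, and for Klf2 18 genes did.

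Among relatives of the members, 12 of 17 KLF genes were tested, of which 4 rose and Klf2 alone fell, beside 11.6% and 13.7% of all genes, with a median log2 fold change of 0.25 (0.01 over all genes). Beside Klf3 these were Klf6, an activation-induced KLF gene, Klf9 and Klf12. Klf6 had 108, 120, 106 and 180 CPM in control and 204, 196, 247 and 248.5 CPM in 4A1 KO, without overlap, and its log2 fold change was 0.80 (SE 0.12; edgeR adjusted p = 4.90e-04). Klf9 had a log2 fold change of 0.65 (SE 0.11) and Klf12 of 0.56 (SE 0.14). The 7 KLF genes that were not called (Klf4, Klf7, Klf8, Klf10, Klf11, Klf13 and Klf16) had values from −0.24 for Klf10 to 0.28 for Klf11. With all 8 libraries fitted, 3 of the 12 rose and 1 fell.

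Of the 8 FOXO and FOXP genes 5 were tested. Foxp4 had 208, 183, 169 and 163 CPM in control and 306, 285, 266 and 239 CPM in 4A1 KO, and it rose with a log2 fold change of 0.62 (SE 0.05; edgeR adjusted p = 2.12e-05). The genotypes did not overlap. Foxo4 was at −0.33 (SE 0.09) and was not called. The FOXP pair tested thus had opposite signs, with Foxp1 at −0.38.

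All 5 BTG and TOB genes that were tested, of 6, had an adjusted p under 0.05 and were higher in 4A1 KO, and 3 were called, with a median log2 fold change of 0.56. Of all genes, 26.3% passed the p threshold with a higher value and 11.6% were called increased. Without the replicate block Btg1 did not pass (edgeR adjusted p = 0.176). Btg3 had the largest value. It had 16.7, 14.3, 14.9 and 14.9 CPM in control and 32.9, 29.7, 29.8 and 25.4 CPM in 4A1 KO, and rose with a log2 fold change of 0.94 (SE 0.09; edgeR adjusted p = 4.12e-05). Tob2 was at 0.17 (SE 0.05).

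The S1P receptors differed in sign. S1pr3, which marginal zone B cells express, had 38.3, 45.8, 35.7 and 34.6 CPM in control and 49.7, 60.1, 57.4 and 56.5 CPM in 4A1 KO and rose with a log2 fold change of 0.59 (SE 0.08; edgeR adjusted p = 2.14e-04). S1pr4, a receptor of haematopoietic cells, had 9.71, 9.50, 7.94 and 7.02 CPM in control and 4.65, 4.07, 4.46 and 4.13 CPM in 4A1 KO and fell with a log2 fold change of −0.94 (SE 0.13; edgeR adjusted p = 3.57e-04). Neither pair of groups overlapped. S1pr2 was at 0.11 (SE 0.23) with about 1 CPM. Of the 10 tested genes of S1P receptors and metabolism, 2 rose and 2 fell, near the 11.6% and 13.7% of all genes, and Mfsd2b, an S1P exporter, was the other that rose, at 1.16 (SE 0.28) from 0.594 CPM in control.

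**Figure D3:**
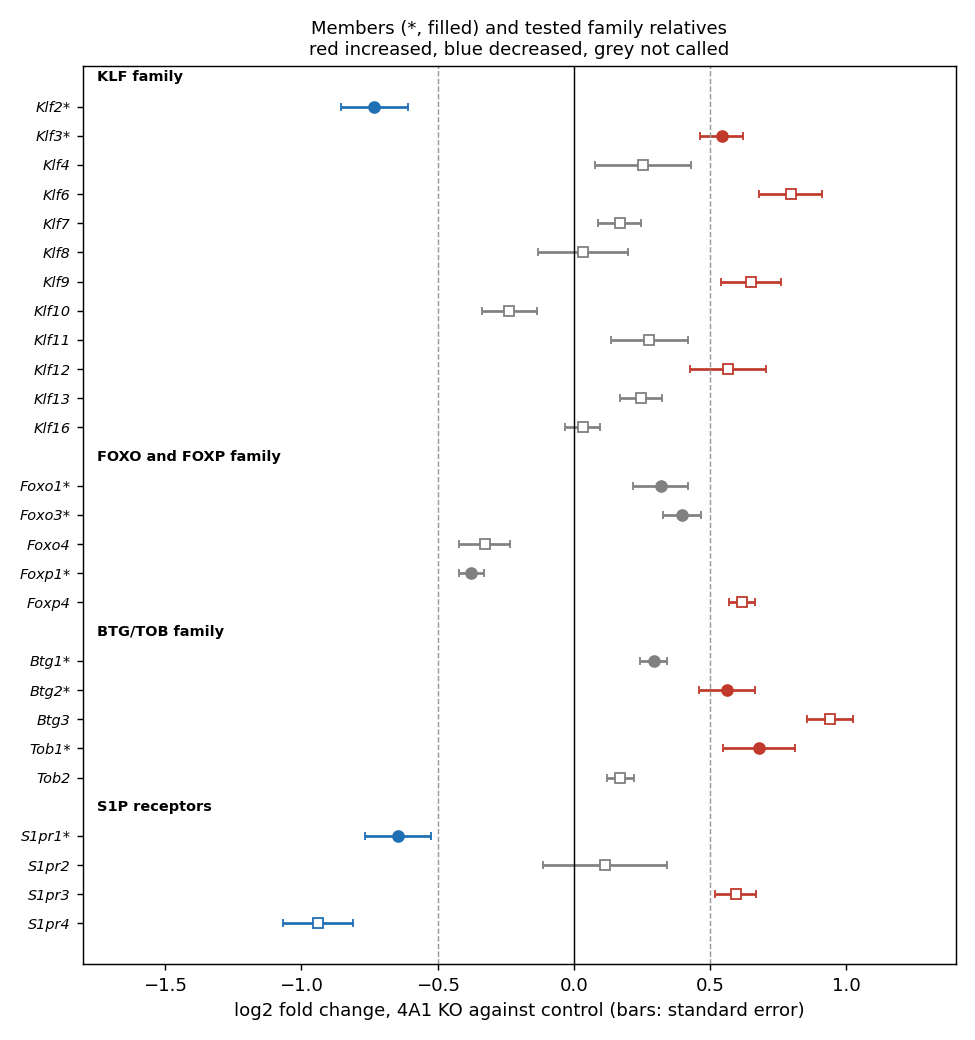
Log2 fold change of 4A1 KO against control with its standard error for the 9 members (filled circles) and their tested relatives (open squares), with dashed lines at the threshold of 0.5 in either direction. The 5 BTG and TOB genes lie to the right of 0, from 0.17 to 0.94, whereas the KLF, FOX and S1P receptor genes lie on both sides.

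Genes up- and downstream of the members were counted by list, beside 11.6% of all genes that rose and 13.7% that fell. The 14 deadenylation genes were those of CCR4-NOT, which BTG and TOB proteins recruit, together with Pan2, Pan3 and Pabpc1. Of the 14, Pan3 rose (0.59, SE 0.06) and the CCR4-NOT genes Cnot6 (−0.74, SE 0.05) and Cnot9 (−0.56, SE 0.05) fell, with a median of 0.11. These 3 of 14 are near the 25.3% of all genes that were called. Cnot6 encodes a catalytic subunit, with 117, 142, 160 and 169 CPM in control and 72.3, 86.0, 90.1 and 105 CPM in 4A1 KO. The catalytic subunits that BTG and TOB proteins bind, Cnot7 and Cnot8, were at 0.28 (SE 0.05) and −0.36 (SE 0.06) and were not called, and are named after their values were seen.

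Of 9 recirculation genes known downstream of KLF2 or FOXO1, 4 fell (13.7% of all genes did), with a median of −0.28. Among them were S1pr1, Cxcr5 and Itgb7, the last named after its values were seen (−0.72, SE 0.16). Cxcr5, the follicle homing receptor, had 115, 129, 168 and 163 CPM in control and 51.1, 54.4, 45.2 and 67.3 CPM in 4A1 KO (−1.47, SE 0.11). The genotypes did not overlap. Ccr7 went the other way, at 0.47 (SE 0.08), and was not called. With the p threshold of edgeR alone, 1 of the 9 was higher and 5 were lower in 4A1 KO, beside 26.3% and 26.7% of all genes.

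Among 23 tested FOXO target genes, 6 rose and 1 fell, beside 11.6% and 13.7% of all genes, with a median of 0.12. Trib1, a pseudokinase gene, had 20.1, 12.1, 14.9 and 17.8 CPM in control and 62.6, 56.3, 65.6 and 55.4 CPM in 4A1 KO (1.99, SE 0.11). Bcl6, the germinal centre repressor, rose by 0.87 (SE 0.09), and Cat, which encodes catalase, was the one that fell (−0.91, SE 0.08). The cell cycle inhibitor Cdkn1b, named after its values were seen, was at −0.07 (SE 0.07).

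The 27 PI3K and AKT regulators of FOXO held 3 genes that rose and 3 that fell, near the shares of all genes (11.6% and 13.7%), with a median of −0.02. Pik3cd, the leukocyte PI3K catalytic subunit, had 154, 157.5, 153 and 167 CPM in control and 92.6, 96.6, 78.4 and 103 CPM in 4A1 KO (−0.79, SE 0.06). Akt1, the kinase that phosphorylates FOXO, had 269.6, 287, 255 and 258 CPM in control and 169, 163, 151 and 178 CPM in 4A1 KO (−0.70, SE 0.06). Neither overlapped between genotypes. Skp2 fell as well (−0.63, SE 0.10), and Sgk1 (0.90, SE 0.14) and Rictor (0.54, SE 0.08) were among those that rose, all named after their values were seen. Ywhah, a 14-3-3 gene, was at −0.499 (SE 0.06) and was not called.

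Of 20 other regulators associated with quiescence, Tsc1 (0.55, SE 0.06), an inhibitor of mTORC1, and Foxj1 (1.73, SE 0.28), a forkhead gene at 0.496 CPM in control, rose, with a median of 0.19. These 2 of 20 are near the 11.6% of all genes that rose. Elf4 was at 0.40 (SE 0.06) and was not called. Among 12 p53 targets, Zmat3 (0.69, SE 0.08) and, named after its values were seen, Bbc3 (0.70, SE 0.16) rose, with a median of 0.30. The 2 of 12 that rose are near the share of all genes (11.6%) as well. Ccng1 (0.37, SE 0.05) and Bax (0.23, SE 0.05) were not called. Of 12 immediate early genes, which activation induces within minutes, 3 rose, beside 11.6% of all genes, with a median of 0.33. The 3 were Egr1 (1.35, SE 0.18), Egr2 (1.23, SE 0.10) and, named after its values were seen, Atf3 (0.66, SE 0.22). Junb was at 0.25 (SE 0.05).

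Proliferation markers had the median furthest from 0 of the 12 lists. Of 10, 9 fell and the median was −2.18. Cdk1, the mitotic kinase, had 27.1, 58.3, 43.8 and 68.6 CPM in control and 2.69, 6.33, 5.50 and 19.4 CPM in 4A1 KO (−2.61, SE 0.23). Ccnb1 (−2.27, SE 0.16) and Top2a (−2.03, SE 0.16) were likewise lower in every 4A1 KO library than in any control. The share of dividing cells in the values of the members was not tested.

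**Figure D4:**
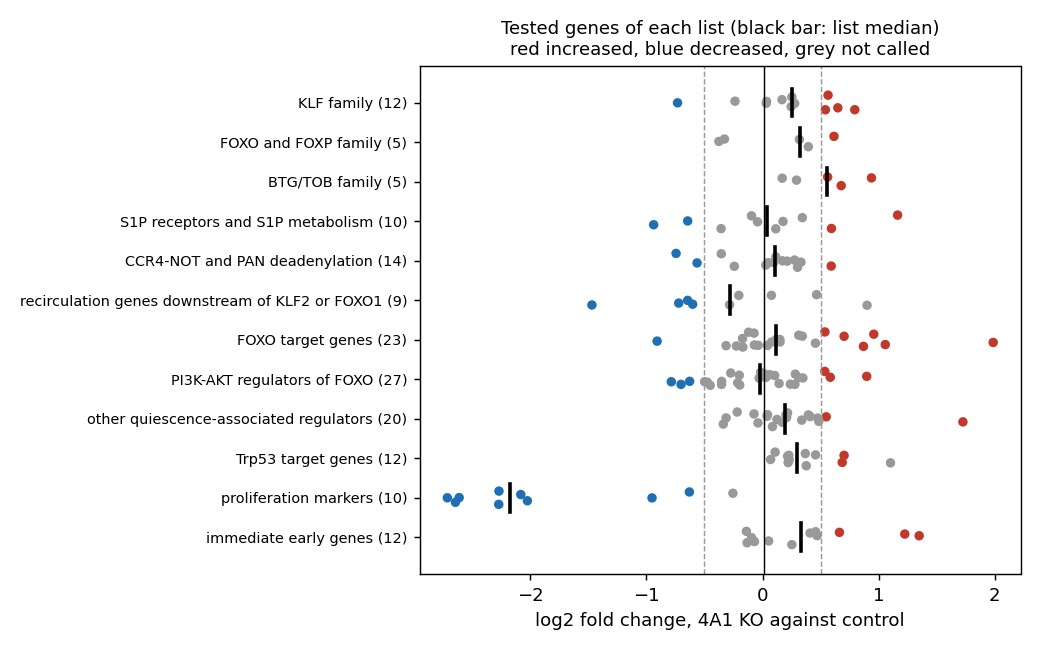
Log2 fold change of 4A1 KO against control for each tested gene of 12 lists (number tested in brackets), with a black bar at the median of the list, a thin line at the median of all genes (0.01) and dashed lines at 0.5 in either direction. Proliferation markers sit furthest left with a median of −2.18, and the BTG/TOB family furthest right with a median of 0.56.

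Transcript features that EIF4A1 or mRNA decay are known to read were also taken from the canonical transcripts. EIF4A1 unwinds structured 5′ UTRs, and the 5′ UTRs of the members ran from 67 nt (58.2% GC, Btg2) to 535 nt (59.8% GC, S1pr1), beside a median of 231 nt and 65.0% GC over all tested coding genes. Klf3 (467 nt, 74.7% GC) and Foxo1 (466 nt, 76.0% GC) were both long and GC-rich. The AU-rich motif UAUUUAU, bound by decay factors of the ZFP36 family, was in the annotated 3′ UTR of 2 members and in 32.3% of 11312 3′ UTRs. The 2 sites are shown with the motif in capitals, because Klf2 fell and Btg2 rose.
Klf2 site, base 80 of 737: aaacagacugcUAUUUAUuggaccuuagg
Btg2 site, base 103 of 2199: aaaugaagagcUAUUUAUacauguuuuuu
The canonical transcript of Foxp1 had no annotated 3′ UTR and was not searched.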

How the data were processed

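RNA of splenic B cells from 8 mice was analysed, with genotype, sex and batch taken from the labels. The authors trimmed reads with Trim Galore 0.6.6, mapped them to GRCm39 with HISAT2 2.1.0 and deposited raw read counts, generated strand-specifically with Seqmonk over merged isoforms. The deposited TPM came from StringTie 2.1.1, run by the authors. How reads mapping to several places were counted is not given in the sources used here.

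Differential expression was tested on the counts with edgeR 4.0.16 in R 4.3.3 (filterByExpr, TMM, quasi-likelihood test, two-sided, Benjamini-Hochberg) with batch and sex as covariates, which in replicates 2 to 4 are the same as a block for replicate number. CPM were scaled by TMM over 8 libraries. Same-numbered libraries pair by batch and sex in their labels, and after the genotype means were subtracted they correlated across genes (r of 0.732, 0.594, 0.56 and 0.67). TPM were tested with limma 3.58.1 on log2(TPM + 1) over genes averaging 1 TPM or more, and with exact permutation tests. Alternatives were DESeq2 1.42.0 with and without shrinkage, other normalizations, filters and pseudocount, no block, all 8 libraries and leaving out each replicate. Both fits were also run on simulated data, with changes larger than those of the members and no effects of batch, sex or replicate. Those runs therefore do not cover such effects or changes as small as those of the members. Counting noise was not separated from the spread between mice, and SDs cover both.

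Members and gene lists were chosen with earlier results of these data known. Named genes are the members, their tested relatives, the 3 genes of smallest adjusted p in each other list, and the gene most like each member. Not every gene of this rule is reported here. Promoters and UTRs came from GENCODE M39 on GRCm39, in which 52647 of the 53242 gene identifiers were found.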

Additional observations from a re-analysis of the deposited data

Results flagged for a closer look

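Among 54 named genes, each examined in both genotypes with 4 libraries (108 groups), 4 groups had 1 library whose gap to its nearest neighbour took up an unusually large share of the group's range. Chance flags about 1 in 20 groups, or 5.4 of 108. None of the 4 was a member. The FOXO target Cat had 91.8 CPM in control replicate 2 against 69.1 to 72.7 in the other controls (share 0.842). The 14-3-3 gene Ywhah had 115.7 CPM in control replicate 1 against 142.8 to 145.1 (share 0.922). The p53 target Zmat3 had 31.3 CPM in 4A1 KO replicate 4 against 23.6 to 24.9 (share 0.83). The p53 target Bax had 205.8 CPM in 4A1 KO replicate 1 against 166.6 to 168.7 (share 0.945).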

How the results depend on the processing

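Each member's log2 fold change was recomputed under 12 alternatives, and of these 108 values 4 lost the call, none gained it and none changed sign. By the p threshold alone, 7 of the 108 lost their side, 5 of them for Foxo1 and the others for Btg1 and S1pr1 without the replicate block. The 4 were Klf3 without replicate 2, Btg2 without replicate 2 and without replicate 3, and S1pr1 without the replicate block (−0.68, edgeR adjusted p = 0.135), and the block changed no other member's call. Leaving out 1 replicate at a time gave 3 to 5 called members, Klf3 from 0.43 to 0.62, Btg2 from 0.486 to 0.705 and S1pr1 from −0.75 to −0.54. The cause was not tested. Foxo1 ranged from 0.18 to 0.50, Klf2 ranged from −0.86 to −0.53 and Tob1 from 0.58 to 0.84 over the 12 alternatives. The smallest counts were those of S1pr1 (151 to 486 per library) and Tob1 (198 to 396).

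The TPM calls depended more on the processing. Of 63 values, 15 lost the call, and by the p threshold alone 21 lost their side and 1, Foxo1 without replicate 4, gained it. The 5 members called in limma came to 1 without the filter on low TPM, where more genes were tested and Klf2 (−0.71), Klf3 (0.50), Btg2 (0.51) and Tob1 (0.56) had adjusted p from 0.0574 to 0.069, and to 3 without the replicate block, where Klf3 (0.50) and S1pr1 (−0.52) were lost. Klf3 was at 0.48 in all 8 libraries. Leaving out 1 replicate gave 1 to 5 called members, with Klf3 from 0.39 to 0.59, Btg2 from 0.44 to 0.64, Tob1 from 0.48 to 0.71 and S1pr1 from −0.60 to −0.42. In all 8 libraries the counts of the gene lists moved for the KLF family (3 rose and 1 fell), the PI3K and AKT regulators (2 and 4) and the other quiescence regulators (1 rose).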
